A study of Mus musculus with 31 samples.

Results

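The fat cell genes Adipoq, Fabp4, Lep, Retn, Cidec, Ucp1, Cidea, Car3 and Lipe were followed over 31 BXD mouse strains. These 9 genes were found by their names in the platform's probe table, among 15096 named genes on 23040 probes, and each had 1 probe. BXD strains are inbred lines whose founders were C57BL/6J and DBA/2J mice, so at each gene a strain carries the allele of 1 founder. Total RNA of 3 replicates per strain, from males 8 weeks of age, was mixed, given a red dye and put on a spotted array together with pooled C57BL/6J RNA in green. The reference mice had the same sex and age, no treatment is given for either, and dyes were never swapped. The 31 strains comprised 24 from BXD1 to BXD32 and 7 from BXD33 to BXD42, a division that follows the breeding history of the panel and not the labels. All values are log2 ratios, read as strain over C57BL/6J. This reading is the likely one but is not stated, so each "higher" and "lower" rests on it.

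White fat cells store triglyceride in 1 large lipid droplet and release hormones, and brown fat cells burn fatty acids to make heat. Adipoq encodes adiponectin, Lep leptin and Retn resistin, all hormones released by fat cells. Fabp4 carries fatty acids inside the fat cell and is also made by capillary endothelium, while Car3 is a carbonic anhydrase abundant in fat, muscle and liver. Cidec and Cidea coat lipid droplets and help them to fuse, and Lipe is the hormone-sensitive lipase that breaks their lipid down. Ucp1 lets protons leak across the inner mitochondrial membrane of brown fat cells and is the gene that defines them, and Cidea is also characteristic of brown fat. Lep and Retn are more typical of white fat, and Adipoq, Fabp4, Cidec, Lipe and Car3 are made in both kinds. Kidneys lie in fat, which in mice can hold brown fat cells.

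Start regions are shown for Adipoq and Cidec, the member pair whose strain values were most alike, and for Ucp1, the gene that defines brown fat. Of the 9 genes, 6 had an entry in the RefSeq promoter table for build GRCm38.p6. The 250 bases before each start are printed 5′ to 3′ on the strand of the gene, with capitals for motif matches on either strand.
Adipoq, chr16:23146286-23146535, plus strand: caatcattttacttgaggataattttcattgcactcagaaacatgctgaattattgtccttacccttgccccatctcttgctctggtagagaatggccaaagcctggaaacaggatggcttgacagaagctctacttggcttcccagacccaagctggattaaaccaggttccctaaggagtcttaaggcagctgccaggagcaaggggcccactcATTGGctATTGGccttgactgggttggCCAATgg
Cidec, chr6:113435761-113436010, minus strand: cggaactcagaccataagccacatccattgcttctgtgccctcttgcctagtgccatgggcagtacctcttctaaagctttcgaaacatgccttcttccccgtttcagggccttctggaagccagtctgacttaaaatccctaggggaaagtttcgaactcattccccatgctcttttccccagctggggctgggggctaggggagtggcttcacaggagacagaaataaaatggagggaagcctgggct
Ucp1, chr8:83290098-83290347, plus strand: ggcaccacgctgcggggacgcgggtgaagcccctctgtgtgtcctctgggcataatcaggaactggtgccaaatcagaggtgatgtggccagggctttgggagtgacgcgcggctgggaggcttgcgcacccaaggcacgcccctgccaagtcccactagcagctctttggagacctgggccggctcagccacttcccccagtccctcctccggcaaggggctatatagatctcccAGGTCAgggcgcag
Both strands were searched for the CCAAT box, the TATA box sequence TATAAA, the nuclear receptor sequence AGGTCA and the C/EBP-type sequence TTGCNNAA. Adipoq had 3 matches to CCAAT, beginning 34, 27 and 7 bases before the start. Ucp1 had AGGTCA beginning 14 bases before the start, and the Cidec window had no match. In windows of the same length from 27025 genes, the share with a match on either strand was 34.5% for CCAAT, 13% for the TATA box sequence, 13.8% for AGGTCA and 9.55% for TTGCNNAA. A match describes letters in a window and does not show that a factor binds there.

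Every array had the same set of sorted values, from -4.07 to 4.95 with a median of 0.0127, and arrays correlated with each other at -0.0926 to 0.808. Titles of all 31 samples say kidney and their source fields say whole brain. Ratios hold no expression levels, so neither the tissue nor the presence of fat cells can be checked from marker levels. The spread over strains had a median SD of 0.466 for the fat cell genes, 0.483 for 14 proximal tubule genes, 0.304 for 11 neuron genes and 0.358 for all genes. For 902 genes with exactly 2 probes the median correlation of these probes over strains was 0.0196. A single probe is thus a weak measure of its gene, and the values below are those of 1 probe per gene. In bulk RNA, fewer fat cells and less RNA per fat cell cannot be told apart. Each strain had 1 array, so strains cannot be ranked against an error of their own.

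The first comparison asked which fat cell genes differed from C57BL/6J on average over strains. Of the 9 genes, 6 were higher and 0 lower, by limma with Benjamini-Hochberg adjustment over all genes at 0.05. Over all 15096 genes, 26.5% were called higher and 29.3% lower. The median of the 9 means was 0.28, against -0.01 for all genes. No fat cell gene was lower at an unadjusted p under 0.05 either. The fit over all 23040 probes called the same number higher. With no dye swap, a mean shared by all strains holds strain, reference and dye effects together.

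**Figure D1:**
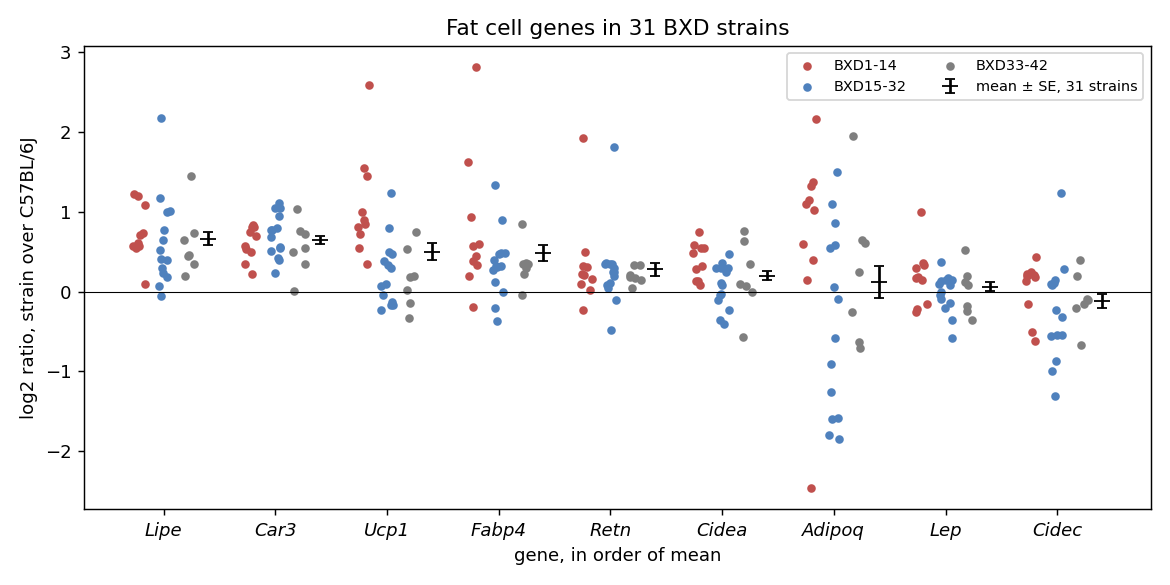
Log2 ratios (vertical axis) of the 9 fat cell genes (horizontal axis, in order of mean), 1 point per strain, coloured by strain number, with the mean ± SE over 31 strains in black. Car3 is above 0 in all 31 strains, and Adipoq spreads from -2.46 to 2.16.

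The enzymes had the highest means as deposited, an order that changed when spot position was removed. Lipe, the lipase, ran from -0.06 in BXD18 through a median of 0.57 to 2.17 in BXD20. Its mean was 0.66 ± 0.0809 (SE, n = 31 strains), a 1.58-fold difference (adjusted p = 3.33e-08), and 30 of 31 strains were above 0. BXD20 stood well above the next strain, BXD34 at 1.44. Car3, the carbonic anhydrase, ran from 0.01 in BXD33 through a median of 0.68 to 1.11 in BXD31. Its mean was 0.64 ± 0.0496 (adjusted p = 5.82e-12), and it was the member with the smallest spread, an SD of 0.264. BXD33 alone was at the level of C57BL/6J, and the next lowest strain was BXD6 at 0.22.

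Both brown fat genes were higher. Ucp1, the proton leak gene, ran from -0.33 in BXD38 through a median of 0.38 to 2.58 in BXD12. Its mean was 0.50 ± 0.107, a 1.41-fold difference (adjusted p = 0.000194), and 24 of 31 strains were above 0. After BXD12 came BXD9 at 1.55 and BXD11 at 1.44. Cidea, the droplet protein of brown fat, ran from -0.57 in BXD38 through 0.25 to 0.76 in BXD33. Its mean was 0.20 ± 0.059 (adjusted p = 0.00458), with 23 of 31 strains above 0, and its call was lost when the test asked for a difference beyond 0.2.

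Fabp4, the fatty acid carrier, ran from -0.37 in BXD32 through a median of 0.35 to 2.81 in BXD12. Its mean was 0.48 ± 0.102 (adjusted p = 0.000164) and 26 of 31 strains were above 0. BXD12 was far above the next strains, BXD1 at 1.62 and BXD20 at 1.33. Cidec, the droplet protein of white and brown fat cells, ran from -1.31 in BXD29 through -0.09 to 1.23 in BXD28. Its mean was -0.12 ± 0.0866 (adjusted p = 0.242), with 15 strains above 0 and 16 below.

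The hormone genes differed in pattern. Retn, resistin, ran from -0.48 in BXD28 through 0.21 to 1.92 in BXD9. Its mean was 0.28 ± 0.0806 (adjusted p = 0.00341) and 28 of 31 strains were above 0. Only BXD9 and BXD15, at 1.81, exceeded 0.50, the value of the third strain, BXD1. Without these arrays, a choice made after seeing the data, the mean of Retn was 0.17 (adjusted p = 0.00062). Lep, leptin, ran from -0.58 in BXD23 through 0.10 to 0.99 in BXD11, with a mean of 0.06 ± 0.0556 (adjusted p = 0.413). The second highest strain for Lep was BXD42 at 0.52. Adipoq, adiponectin, ran from -2.46 in BXD9 through 0.40 to 2.16 in BXD1, with 19 strains above 0 and 12 below. Its mean was 0.12 ± 0.20 (adjusted p = 0.644), and its SD of 1.19, larger than that of 99.8% of all genes, was 0.695 with spot position removed.

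**Figure D2:**
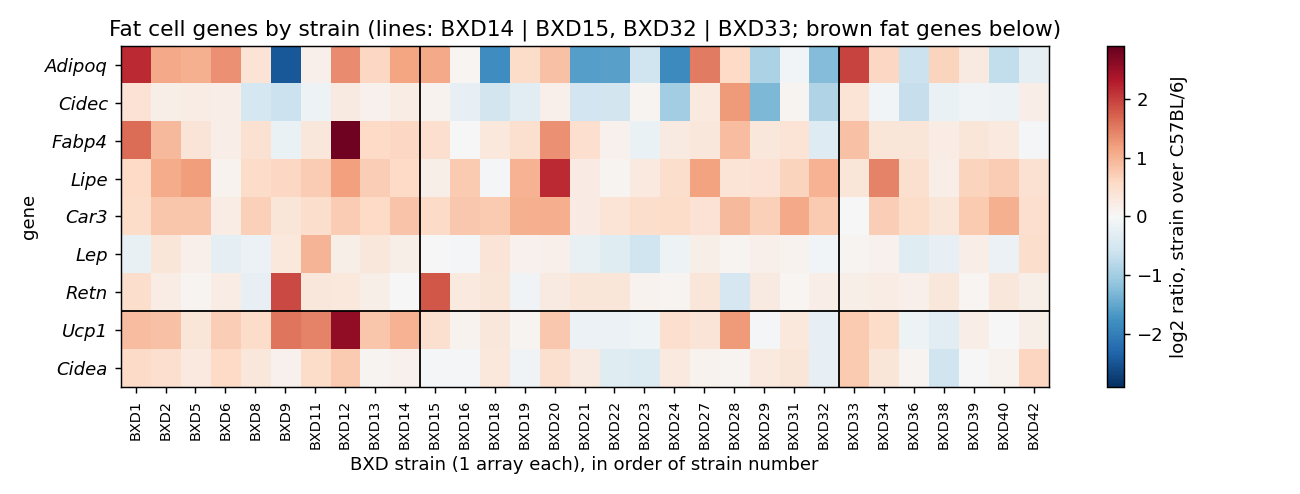
Log2 ratios over C57BL/6J (colour, white at 0) of the 9 fat cell genes (rows, brown fat genes below the horizontal line) in 31 strains (columns in order of strain number; vertical lines after BXD14 and BXD32). BXD12 is dark for Fabp4 (2.81) and Ucp1 (2.58), and Retn is dark only in BXD9 (1.92) and BXD15 (1.81).

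Spot position moved with some of these values. Probe numbers repeat in blocks of 480, and each fat cell probe shared its place in the block with 47 other probes. The median ratio at that place, averaged over strains, was 0.50 for Adipoq, 0.28 for Car3 and for Lipe, and between -0.06 and 0.10 for the other members. Over strains, Adipoq followed the median of its place with an r of 0.827, Lipe 0.686 and Car3 0.65, against 0.057 for Fabp4 and 0.089 for Cidec. With the median of each place removed from each array, the same count of 6 members was higher, but Lipe fell to 0.38 and Car3 to 0.36. Fabp4 (0.41), Ucp1 (0.46), Retn (0.34) and Cidea (0.18) moved little, so that Ucp1 and Fabp4 then lay above both enzymes. The SD of Adipoq fell from 1.19 to 0.695. Adipoq turned to -0.38 (adjusted p = 0.00628) and Cidec was at -0.22 (adjusted p = 0.0336), so that 2 members were then lower. The part of spot position in the deposited values was not tested.

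**Figure D3:**
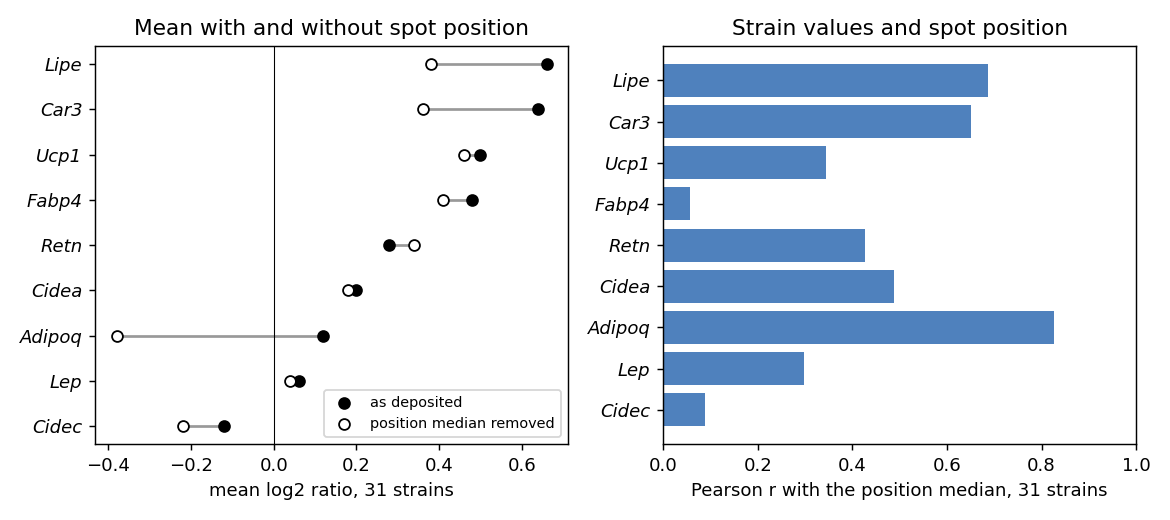
Left, mean log2 ratio over 31 strains (horizontal axis) of each fat cell gene as deposited (filled) and with the median of its place in the block of 480 probes removed (open). Right, Pearson r over strains between each gene and that median. Adipoq turns from 0.12 to -0.38 and has the highest r, 0.827, and Fabp4 the lowest, 0.057.

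The next comparison set the later breeding, BXD33 to BXD42, against BXD1 to BXD32. None of the 9 genes was called by limma (0 at an unadjusted p under 0.05), and of all genes 1 was called, 0.00662%, with 1946 at an unadjusted p under 0.05. The difference was widest for Ucp1, with 0.59 in BXD1-32 and 0.17 in BXD33-42, a difference of -0.42 ± 0.248 (SE, adjusted p = 0.491). For Adipoq the means were 0.07 and 0.26, a difference of 0.19 ± 0.484 (adjusted p = 0.903). The other 7 genes differed by -0.18 to 0.04.

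Strain order was described without a test between groups, since a break after BXD14 was seen in earlier results of the same arrays. Ucp1 was above 0 in all 10 strains from BXD1 to BXD14, from 0.35 in BXD5 through a median of 0.87 to 2.58 in BXD12. In the 14 strains from BXD15 to BXD32 it ran from -0.23 through 0.20 to 1.23, and in the 7 from BXD33 on from -0.33 through 0.18 to 0.75. The mean of Ucp1 was thus 1.07 ± 0.643 (SD, n = 10) in the first strains, 0.24 ± 0.415 (n = 14) in the middle ones and 0.17 ± 0.374 (n = 7) in the last, with overlapping ranges. Ucp1 was called against C57BL/6J within the first strains, but neither in the middle ones (adjusted p = 0.0736) nor in the last (adjusted p = 0.413). Of all genes, 3264, 2960 and 937 were called higher within these groups, in the same order. The calls come from groups of different size, cut at a break seen in these arrays, and do not test a step between groups. Cidea had means of 0.38, 0.07 and 0.19 in the same order, Fabp4 0.77, 0.34 and 0.34, and Adipoq 0.68, -0.36 and 0.26. Car3, at 0.61, 0.70 and 0.56, and Lipe, at 0.73, 0.63 and 0.61, showed no such step. Some other lists fell in the same order, with means of 0.50, 0.23 and -0.01 for proximal tubule genes and 0.71, 0.46 and 0.42 for oxidative phosphorylation genes. Others did not, with 0.10, 0.08 and 0.14 for macrophages, 0.02, 0.06 and 0.15 for lipolysis, -0.13, -0.04 and -0.08 for lymphocytes and a rise from -0.43 through -0.33 to -0.24 for skeletal muscle. What lies behind the order by strain number was not tested.

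Brown fat members were then set against the others within each strain. The mean of Ucp1 and Cidea was 0.35 and that of the other 7 genes 0.30, a difference of 0.05 ± 0.0615 (SE, n = 31 strains) that was above 0 in 15 strains. As deposited and with all members, this difference was within its error. It gets no test, as the members were chosen with earlier results known. It ran from -0.63 in BXD38 to 0.85 in BXD9, with BXD12 at 0.69, BXD24 at 0.62 and BXD11 at 0.58. In BXD9 high Ucp1 (1.55) stood beside the lowest Adipoq (-2.46) and the highest Retn (1.92). In BXD38 both brown fat genes were at their lowest. With the white-enriched Lep and Retn alone as the other side the difference was 0.18, with Ucp1 alone as the brown side 0.19, and with spot position removed 0.19. These values are larger than 0.05 and are given without an SE, so the size of the difference depends on the setting. As deposited and with all members, the difference from BXD1 to BXD14 was 0.25 ± 0.114 (SE, n = 10). From BXD15 to BXD32 it was -0.03 ± 0.0819 (n = 14) and from BXD33 on -0.09 ± 0.108 (n = 7).

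**Figure D4:**
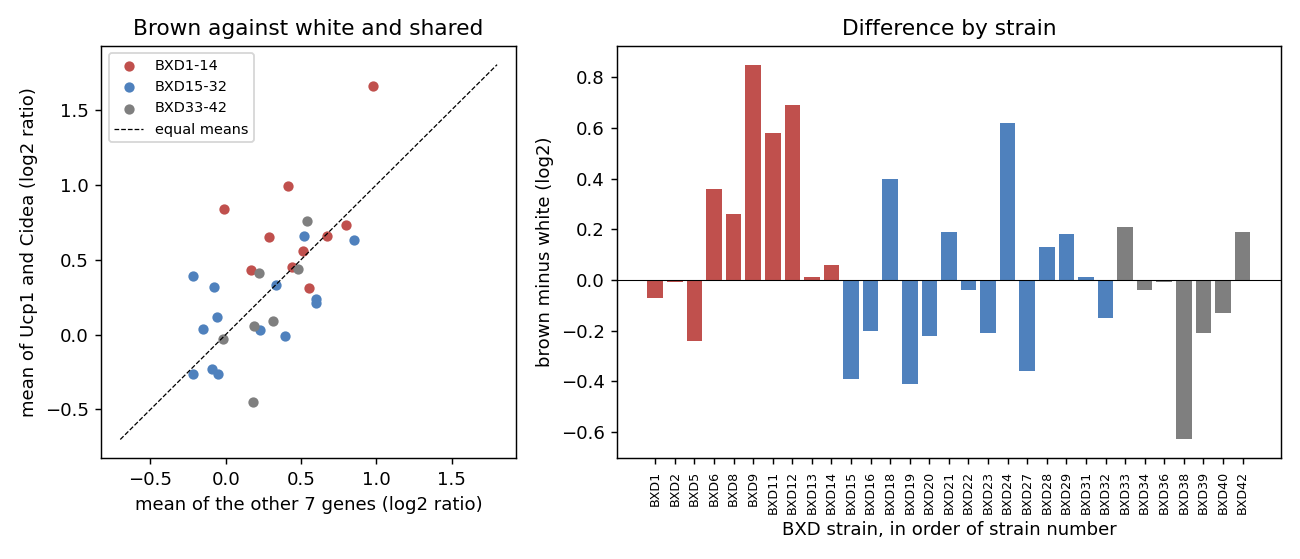
Left, mean log2 ratio of Ucp1 and Cidea (vertical axis) against that of the other 7 fat cell genes (horizontal axis), 1 point per strain, with a dashed line where both are equal. Right, the difference of these means by strain, coloured by strain number, from -0.63 in BXD38 to 0.85 in BXD9; 15 of 31 strains are above 0.

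As a description, the brown mean and the mean of the others had a Pearson r of 0.621 and a Spearman rho of 0.581 over the 31 strains, which share the reference. Without BXD12 and BXD20, the strains farthest out, r was 0.508. Within BXD1-14, BXD15-32 and BXD33-42 r was 0.458, 0.58 and 0.718. The mean of all 9 genes ran from -0.23 in BXD22 to 1.13 in BXD12, with BXD20 at 0.80 and BXD1 at 0.78, and 24 strains were above 0.

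Whether the genes rose and fell together over strains was tested by fitting all other genes on the strain values of 1 fat cell gene at a time. The 36 pairs had a median r of 0.205 (lowest -0.321, highest 0.724), and 29 were positive. Of the 72 ordered pairs 8 were called with a positive slope, which came from 5 pairs, 3 of them called from both sides. Adipoq called 2 of 8 other members, where 9.94% of all genes were called. Fabp4 called 3 of 8 (2.16% of all genes), Ucp1 2 of 8 (6.85%) and Cidec 1 of 8 (3.56%). Lipe, Car3, Retn, Cidea and Lep called 0 of 8 by limma, where 4.34%, 0.49%, 0.172%, 0.152% and 0.0397% of all genes were called. At an unadjusted p under 0.05 these called 2, 1, 0, 4 and 2 of 8, against 13.4%, 10.9%, 4.68%, 10.2% and 7.06% of all genes, so that Lipe, Car3 and Retn were near the background.

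Adipoq and Cidec, a hormone gene and a droplet gene, were the most alike. Their r was 0.724 and rho 0.839, each with a permutation p of 1e-05, the smallest that 100000 permutations can give. The adjusted p over all genes was 0.000188 with Adipoq as covariate and 0.00226 with Cidec. Both were low in BXD9, BXD24, BXD29 and BXD32, and BXD28 had high Cidec (1.23) at an Adipoq of 0.58. Without BXD9 and BXD24, the strains farthest out in Adipoq, r was 0.685, and within the groups of strain numbers it was 0.864, 0.70 and 0.651. With spot position removed it was 0.667, and with the first principal component removed 0.531, where only the call with Adipoq as covariate was kept. This component, the main axis over all probes, held 20.6% of the variance.

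Fabp4 and Ucp1, the fatty acid carrier and the brown fat gene, had an r of 0.671 (permutation p = 0.00043) and a rho of 0.554 (permutation p = 0.00149). The adjusted p was 0.00534 with Fabp4 as covariate and 0.00305 with Ucp1. BXD12 was the highest strain for both, and without it r was 0.413 and both calls were lost (adjusted p = 0.115 and 0.0922). Without BXD12 and BXD1 r was 0.383, and within the groups of strain numbers it was 0.598, 0.748 and 0.613. With spot position removed r was 0.661, and with the first principal component removed it was 0.47 and both calls were lost (adjusted p = 0.566 and 0.411). The relation thus kept its sign without BXD12 but its call rests on that strain.

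**Figure D5:**
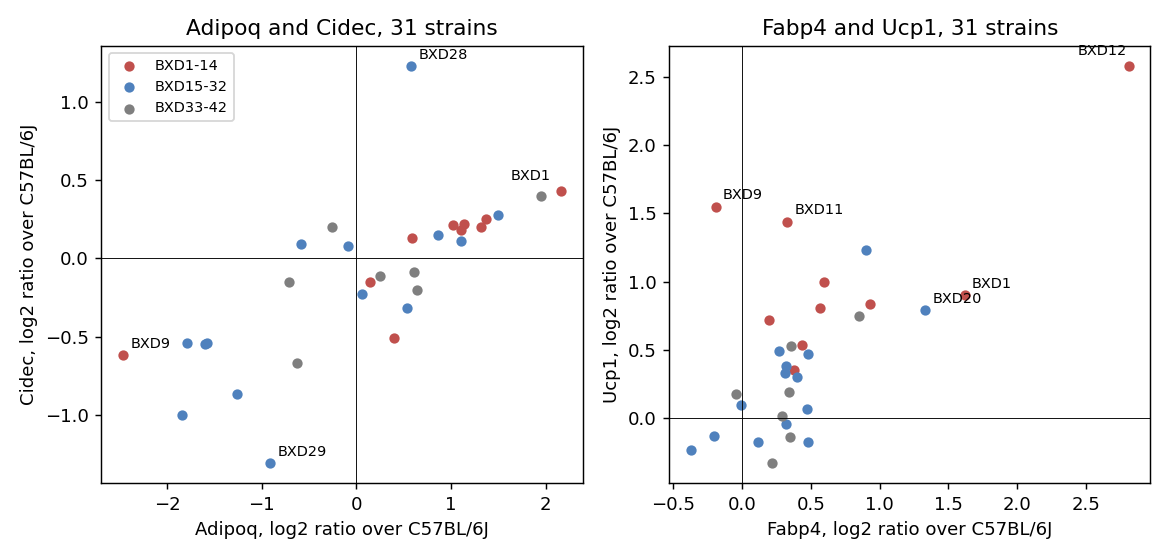
Log2 ratios over C57BL/6J in 31 strains, Cidec (vertical axis) against Adipoq (horizontal axis) on the left and Ucp1 against Fabp4 on the right, coloured by strain number. BXD28 lies off the Adipoq and Cidec trend at 1.23, and BXD12 is far from all other strains for Fabp4 (2.81) and Ucp1 (2.58).

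The brown fat genes Ucp1 and Cidea had an r of 0.592 (permutation p = 0.00048) and a rho of 0.60 (permutation p = 0.00045). The pair was called with Ucp1 as covariate (adjusted p = 0.0138) but not with Cidea (adjusted p = 0.059). Without BXD12 and BXD9 r was 0.606, within the groups of strain numbers 0.434, 0.481 and 0.823, and with spot position removed 0.433 (adjusted p = 0.103). After removal of the main axis over all probes r was 0.401 and the call was lost (adjusted p = 0.564). Adipoq and Fabp4 had an r of 0.554 (permutation p = 0.0008) and a rho of 0.617 (permutation p = 0.00027), with adjusted p of 0.00829 and 0.0251. Without BXD9 and BXD24 r was 0.533, within the groups 0.575, 0.455 and 0.718, and without BXD1 the call with Fabp4 as covariate was lost (adjusted p = 0.0631). With spot position removed that call was lost as well (r = 0.467, adjusted p = 0.0823), and with the first principal component removed r was 0.251 and both calls were lost. Fabp4 and Cidea had an r of 0.535 (permutation p = 0.00162) and a rho of 0.395 (permutation p = 0.0283), and were called with Fabp4 only, at an adjusted p of 0.0489. That call was lost in 22 of 31 fits that each left out 1 strain. Without BXD12 and BXD1 r was 0.428, within the groups it was 0.638, 0.655 and 0.316, and with the first principal component removed 0.342.

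Other pairs did not pass. Car3 and Lipe, the enzymes, had an r of 0.50 (permutation p = 0.00411) and a rho of 0.533 (permutation p = 0.0022), with adjusted p of 0.0975 and 0.0623. It was 0.461 without BXD33 and BXD6, 0.714, 0.47 and 0.559 within the groups, and 0.233 with spot position removed. Lep, leptin, came nearest to Ucp1, with an r of 0.483 (permutation p = 0.00773), a rho of 0.497 (permutation p = 0.00472) and adjusted p of 0.327 and 0.0557. Without BXD11 and BXD23 that r was 0.373, and within the groups it was 0.331, 0.469 and 0.525. Retn, resistin, stood apart, with r from -0.321 to 0.172 against the other members and a median of -0.115. Without BXD9 and BXD15, its highest strains, these r ran from -0.37 (Car3) to 0.112 (Cidea). That with Ucp1 turned from 0.172 to -0.0896, so the sign of some of them rests on these strains. Adipoq and Ucp1 had an r of 0.344 (permutation p = 0.0584) and a rho of 0.488 (permutation p = 0.00575), with adjusted p of 0.13 and 0.157. Without BXD9, where they lay far apart, and BXD24 this r was 0.578, within the groups it was -0.19, 0.504 and 0.647, and with the first principal component removed it turned to -0.21.

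The first principal component moved with these genes. Members had an r with it of -0.698 (Adipoq), -0.655 (Ucp1), -0.602 (Cidec), -0.585 (Fabp4), -0.539 (Lipe), -0.505 (Cidea), -0.349 (Lep), -0.19 (Car3) and 0.0854 (Retn), given as a description over 31 arrays. With the component as a covariate, 1 of the 72 ordered pairs was called, and the share of all genes called fell too, to 4.17% for Adipoq, 0.0397% for Ucp1 and 0% for Fabp4 and Cidec. Within BXD1-14, BXD15-32 and BXD33-42 the counts were 1, 1 and 0. The share of all genes called was at most 1.62% in BXD1-14 and 3.29% in BXD15-32, both for Adipoq. In BXD33-42 it was 0% for every member, so the count of 0 there says nothing about these pairs. With ranks in place of values, 15 were called, and the share of all genes rose with them, to 14.9% for Adipoq, 14.1% for Ucp1, 10.2% for Fabp4 and 9.45% for Cidec. Without BXD9, 13 were called.

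Genes most like a member over strains were sought among all genes outside the list. For Adipoq these were Acyp1 (r = 0.926), Dact1 (0.914), Emc7 (0.912), Krtap9-1 (0.905) and Pspn (0.899), and Cidec came at rank 117. For Fabp4 they were Cisd3 (0.775), Sdc4 (0.738), Rtn3 (0.735), Dctn2 (0.721) and Fuom (0.718), with Ucp1 at rank 25. For Ucp1 they were Ldb2 (0.83), Crip1 (0.79), Yes1 (0.782), Maf1 (0.773) and Rpl32 (0.756), with Fabp4 at rank 70. No other member came as close as these genes did. With spot position removed, the r of Adipoq with its 5 genes was 0.566 to 0.741, that of Fabp4 0.672 to 0.745 and that of Ucp1 0.73 to 0.80. They were chosen as the highest of 15096, so their r is a description.

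Other genes of fat biology showed no common direction against C57BL/6J. The counts below stand beside 26.5% of all genes called higher and 29.3% lower. Those of the transcription factors are near both shares. The higher counts of fat synthesis and uptake and of other fat cell markers are near the first. The lower count of brown fat and heat production is near the second. Of the hormone receptors, the adiponectin receptor genes Adipor1 (0.17 ± 0.0535) and Adipor2 (0.38 ± 0.054) were higher, and the leptin receptor gene Lepr was lower at -0.30 ± 0.0582 (adjusted p = 4.97e-05). Lipid droplet genes had 3 of 6 higher and 1 lower. Cideb, the liver member of the Cide family, led them at 0.99 ± 0.138 (adjusted p = 3.44e-07), and Plin5 was lowest at -0.30 ± 0.117. Of the lipolysis genes 3 of 6 were higher, with Prkar2b at the top (0.36 ± 0.102), and the lipase cofactor gene Abhd5 was lower at -0.43 ± 0.135. Fat synthesis and uptake had 5 of 16 higher and 1 lower, from Acaca at -0.28 ± 0.0664, which encodes acetyl-CoA carboxylase, to Fasn, fatty acid synthase, at 0.60 ± 0.07 (adjusted p = 1.12e-08). Fat cell transcription factors had 2 of 8 higher, led by Cebpb (0.39 ± 0.0713), and 2 lower, with Klf15 lowest at -0.35 ± 0.0715. Other fat cell markers had 3 of 9 higher, led by Angptl4 (0.23 ± 0.0861), and 4 lower, with the apolipoprotein gene Apoc1 at -1.36 ± 0.149 (adjusted p = 4e-09). Genes of brown fat and heat production had 6 of 14 higher, led by the brown fat cytochrome oxidase subunit gene Cox8b at 0.53 ± 0.0459 (adjusted p = 4.91e-11), and 4 lower, with Ucp3 at -0.48 ± 0.0549 lowest. Medians of the means of these 7 lists ran from -0.11 to 0.22.

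Over strains, 3 of the 14 brown fat and heat genes rose with Ucp1 and 0 fell, where 6.85% of all genes rose. These were Ppargc1a, a coactivator of mitochondrial genes (r = 0.603, adjusted p = 0.00872), Cpt1b, which carries fatty acids into mitochondria (0.521, adjusted p = 0.0262), and Acot11 (0.506, adjusted p = 0.0391). Dio2, which activates thyroid hormone in brown fat, had an r of 0.377 (adjusted p = 0.171), and Cox8b 0.0745 (adjusted p = 0.84). Elovl3 (-0.401, adjusted p = 0.104), Ucp3 (-0.301, adjusted p = 0.277) and Prdm16 (-0.0133, adjusted p = 0.974) had a negative r. All others on that list had a positive r. Rising with Ucp1 was not particular to that list. Of 8 stroma genes 2 rose with Ucp1 and 0 fell. These were Col1a1 (0.676, adjusted p = 0.00353), with a larger r than any gene of the brown fat list, and Col3a1 (0.528, adjusted p = 0.0218). Of 16 fat synthesis and uptake genes 4 rose with Ucp1 and 1 fell, where 4.78% of all genes fell. The acyltransferase genes Dgat1 (0.608, adjusted p = 0.00866) and Gpam (0.591, adjusted p = 0.009) had the largest r, and Agpat2 fell (-0.484, adjusted p = 0.0414). Lipid droplet genes had 2 of 6 rising with Adipoq, Plin4 (0.473, adjusted p = 0.032) and Plin5 (0.532, adjusted p = 0.0112), and 1 falling, Plin3 (-0.573, adjusted p = 0.0077), where 9.94% of all genes rose and 11.2% fell. Of 8 transcription factors 1 rose with Adipoq, near that share, which was Cebpd (0.749, adjusted p = 0.000109), while Pparg, the master regulator of fat cells, had an r of 0.113 with it (adjusted p = 0.70). Adipor1 fell as Adipoq rose (-0.752, adjusted p = 0.000343). Of 6 lipolysis genes 0 rose and 1 fell with each of Adipoq and Ucp1. This was Abhd5 (-0.608, adjusted p = 0.00272, and -0.51, adjusted p = 0.0255). Of 9 other fat cell markers 2 rose and 1 fell with Adipoq, and 1 rose and 1 fell with Ucp1. Sncg fell with both (adjusted p = 0.0311 and 0.0293), and Cav1 rose with both (adjusted p = 0.00609 and 0.0109).

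Markers of other cell types near the kidney moved with the fat cell genes to different degrees, given as r of list means with the mean of the 9 genes over 31 strains. Endothelium had 0.602, proximal tubule 0.519, stroma 0.505, oxidative phosphorylation 0.478, 3 mesothelium genes 0.477 and adrenal 0.466. Neurons had -0.0806, macrophages -0.129, lymphocytes -0.488 and skeletal muscle -0.652. Of the other fat lists, lipid droplet genes had 0.599, fat synthesis and uptake 0.563, brown fat and heat production 0.414 and transcription factors 0.271. Other fat cell markers had 0.205, hormone receptors -0.185 and lipolysis -0.235. None of these fat lists was above endothelium. Arrays share dye, reference and normalization, and the first principal component correlated with the fat mean at -0.84, with endothelium at -0.724 and with muscle at 0.741. The mean of the adrenal list ran from -0.40 in BXD38 to 0.44 in BXD2, that of endothelium from -0.22 in BXD15 to 0.39 in BXD12, and that of oxidative phosphorylation from -0.37 in BXD15 to 1.24 in BXD12. Muscle was at its lowest, -0.70, in BXD12. BXD12, highest for Fabp4 and Ucp1, was thus also highest for endothelium and oxidative phosphorylation. The part of these cell types in the fat cell values was not tested.

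Against C57BL/6J, adrenal genes had 4 of 9 higher and 1 lower, endothelium 3 and 2 of 10, macrophages 3 and 0 of 9, mesothelium 1 and 0 of 3, stroma 2 and 2 of 8 and lymphocytes 1 and 3 of 8. Proximal tubule had 7 of 14 higher and 1 lower, neurons 5 and 4 of 11, oxidative phosphorylation 17 and 0 of 19, and skeletal muscle 0 and 7 of 9. These counts stand beside 26.5% higher and 29.3% lower of all genes. Those of endothelium and stroma are near these shares, as is the higher but not the lower count of macrophages. Of the 10 endothelial genes, 1 rose with each of Fabp4, Ucp1 and Adipoq, where 2.16%, 6.85% and 9.94% of all genes did. The counts with Ucp1 and Adipoq were thus near the background, and each call was of a different gene. Emcn rose with Fabp4 (r = 0.55, adjusted p = 0.0312), Cldn5 with Ucp1 (0.527, adjusted p = 0.0306) and Tie1 with Adipoq (0.594, adjusted p = 0.00416). Of 19 oxidative phosphorylation genes 1 rose with Fabp4 and 2 with each of Ucp1 and Adipoq, near the background. Atp5o, an ATP synthase subunit gene, rose with Fabp4 (0.697, adjusted p = 0.00406), Ucp1 (0.597, adjusted p = 0.00862) and Adipoq (0.435, adjusted p = 0.048). Of 9 muscle genes 1 fell with Fabp4, 2 with Ucp1 and 3 with Adipoq, where 2.53%, 4.78% and 11.2% of all genes fell. Mylpf fell with all 3 of them, at r of -0.523, -0.537 and -0.676.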

How the data were processed

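The authors deposited 1 table of log2 ratios for 31 arrays, and R 2.0.0 and limma are named in the submitters' processing notes. The steps, the base and the direction of the logarithm are not given in the sources used here. After sorting, all 31 columns were alike within 1e-06, the form that quantile normalization gives. No intensity was used, so signal over background is unknown, and the number of arrays limits the precision. Of the probes, 16874 had 1 gene name, 134 several and 6032 none, and 16196 were matched to RefSeq gene numbers. Probes of a gene were averaged. Means over 31 strains were tested against 0, BXD33-42 against BXD1-32, and slopes on each member, with limma 3.58.1 in R 4.3.3 (lmFit, eBayes, 2-sided, Benjamini-Hochberg over all genes). The functions were tested on simulated data. Correlations had 100000 permutations, 2-sided. P-values measure the spread between arrays of different strains. Named were all members, the highest and lowest gene of each fat list, and the 5 most alike. Of the listed genes called with Adipoq, Fabp4 or Ucp1 only some are named. The strain correlations of Dio2, Cox8b, Elovl3, Ucp3, Prdm16, Pparg, Atp5o, Abhd5, Sncg, Cav1, Col1a1 and Col3a1 were added after they were seen. Members and lists were chosen with earlier results of these data known. Alternatives are given at the end.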

Additional observations from a re-analysis of the deposited data

Results flagged for a closer look

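Among the 7 strains BXD33-42, Lipe in BXD34 was at 1.44, with the next strain at 0.73 and the lowest at 0.20. The gap to the next strain was 0.571 of the whole range, just beyond the limit of Dixon's test for 7 samples. Chance passes this limit in about 1 of 20 such groups, and 10 were examined. Lipe in BXD20, at 2.17, was higher still but lies in a group too large for that test.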

How the results depend on the processing

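Against C57BL/6J, 6 members were higher in the setting reported, with spot position removed, with the probe of largest spread, with arrays centred, with array weights, with robust eBayes, and without 10% of the probes, BXD15 and BXD38, BXD9 and BXD15, or any 1 strain (6 to 6). The probe of largest spread and centring could hardly change this count, as each member had 1 probe and all arrays had the same median. Beyond 0.2 there were 4 members higher, within BXD1-14 5, within BXD15-32 3 and within BXD33-42 2. Of all genes, 1208, 3264, 2960 and 937 were higher in the same order, against 4001 in the setting reported. The low count of members within BXD33-42 thus came with fewer calls over all genes. With spot position removed 2 were lower (otherwise 0, leaving out 1 strain 0 to 0), Adipoq at -0.38 among them. Adipoq was also at -0.36 and Lep at -0.02 within BXD15-32, and Cidec at 0.03 within BXD1-14. Of the 72 ordered pairs, 8 were called, and 5 with spot position removed, 1 with the first principal component as covariate and 15 with ranks. The count was 1 within BXD1-14, 1 within BXD15-32 and 0 within BXD33-42, where 0% of all genes were called for any member. With 1 strain left out, 6 (without BXD12) to 13 (without BXD9) pairs were called. For BXD33-42 against BXD1-32 no setting called a member, and small differences changed sign: Adipoq -0.09 with spot position removed and -0.02 with array weights, Cidec -0.02 with array weights, Cidea 0.11 with spot position removed, 0.11 without BXD15 and BXD38 and 0.12 with the component, Fabp4 0.07, Lep 0.03 and Lipe 0.13 with the component, and Lep 0.02 with spot position removed. Leaving out 1 strain gave -0.09 to 0.35 for Adipoq, -0.10 to 0.12 for Cidea, -0.04 to 0.14 for Cidec, -0.13 to 0.02 for Lep and -0.20 to 0.01 for Lipe. Over all genes, 8418 differed from C57BL/6J, against 2597 beyond 0.2 and 1722 within BXD33-42, and 54 rather than 1 were called between BXD33-42 and BXD1-32 with array weights. The set without BXD9 and BXD15 was chosen after seeing the data. The cause was not tested. No paired analysis was possible because each strain number occurs once. Unknown signal over background limits all values.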
